A study of Mus musculus with 7 samples.

Results

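The nuclear genes of oxidative phosphorylation were followed across cultures of mouse splenic B cells that carried, or were labelled as lacking, the Mediator subunit Med1. A gene belonged to the set when its symbol in the deposited table began with Ndufa, Ndufb, Ndufc, Ndufs or Ndufv and a digit, was Sdha, Sdhb, Sdhc or Sdhd, or began with Uqcr, with Cox and a digit from 4 to 8, or with Atp5. Pseudogene rows whose symbol carries "-ps" (4 rows) were left out. This took 84 of 46959 genes, 35 of complex I, 4 of complex II, 8 of complex III, 20 of complex IV and 17 of complex V. Ndufa4 and Ndufa4l2 were counted with complex IV, where the Ndufa4 protein is now placed, and Atp5s and Atp5sl were kept under complex V by their symbols although neither is an ATP synthase subunit. The genes lie on 19 chromosomes, 3 of them on the X chromosome, and none is on the mitochondrial chromosome.

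Purified splenic B cells were cultured for 4 days with lipopolysaccharide (LPS, 1 µg/mL), a bacterial activator of B cells, and interleukin 4 (IL4, 20 ng/mL), a T cell cytokine. The wild-type group (WT, n = 3) was set against the group labelled cKO MED1 (n = 4), and both groups received LPS and IL4. The labels give no allele, no Cre driver and no age for either group, and name no mouse for any replicate. The p-values therefore measure how these cultures or libraries spread, which may be technical. Total RNA was sequenced after removal of ribosomal RNA. Values of single libraries are listed below in replicate order.

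Oxidative phosphorylation takes place in the inner mitochondrial membrane. Complexes I and II pass electrons from NADH and succinate to ubiquinone, complex III passes them on to cytochrome c, and complex IV hands them to oxygen. Complexes I, III and IV move protons across the membrane as they do so, and complex V, the ATP synthase, lets the protons flow back to make ATP. Complex II is encoded wholly in the nucleus, whereas the other complexes also hold subunits made from the mitochondrial genome. B cells that divide after activation are known to raise their mitochondrial mass and respiration.

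The libraries held 54736580 to 61149274 recovered reads in WT and 31937372 to 49603193 in cKO MED1, so every WT library was deeper. Med1 itself had 4173 to 4755 normalised reads in WT and 2172 to 2585 in cKO MED1, 53.9% of the WT level (a log2 change of -0.89 ± 0.09 SE, limma adjusted p = 0.000174). Normalised reads here are whole reads scaled to 1 common library size. The Y-linked gene Ddx3y had 4470 to 4895 normalised reads in the 3 WT libraries and cKO MED1 replicate 3 and 0 to 4.07 in cKO MED1 replicates 1, 2 and 4, while the female transcript Xist had 36381 to 41073 in those 3 libraries, 1241 in WT replicate 2 and 11.2 to 59.2 in the other 3. Sex therefore differed along with genotype in all but 1 cKO MED1 library. Reads over 1454 olfactory and vomeronasal receptor genes, which B cells are not known to use, lay at 0.0917 to 0.204 per kb in WT and 0.196, 0.279, 0.524 and 0.893 per kb in cKO MED1 replicates 1 to 4. The B cell markers Cd79a, Cd79b, Ms4a1, Pax5 and Cd22 were abundant in both groups and all 5 fell, from -0.88 for Cd79a (means of 14109.8 and 7671 reads) to -0.37 for Pax5 (18265 and 14137 reads), with limma adjusted p from 0.000378 to 0.0458. The summed markers of T cells were at most 139 and those of NK cells at most 124 in any library. The macrophage markers summed to 432 to 692 in WT and 536 to 769 in cKO MED1, and the erythroid markers to 57.1 to 143 and 98.8 to 413. Neutrophil markers summed to 2.75 to 10.6 in WT and 19.0 to 69.5 in cKO MED1, platelet markers to 31.0 to 49.8 and 105 to 178, and neuron markers to 38.6 to 80.0 and 92.1 to 337. These 3 sums did not overlap between groups. In each of these lists and in the erythroid list, 1 gene was higher in cKO MED1. The 5 stromal markers summed to 1387 to 1621 in WT and 1001 to 1157 in cKO MED1, also without overlap. Of these 5 markers, 1 was called lower and none higher, although their median log2 fold change was positive. The part of such RNA in the results that follow was not tested.

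Of the 84 genes, 80 passed the filter on low counts. At an adjusted p under 0.05 (limma, over all 18062 genes tested), 11 were lower in cKO MED1 and 1 was higher. Across all genes tested, 14.6% were lower, 13.4% were higher and 28.0% were called in either direction, against 13.75% lower and 1.25% higher among the oxidative phosphorylation genes. Their share of lower calls was thus near the background. Their median log2 fold change was -0.12 against 0.04 over all genes, and 56 of the 80 lay below 0. The median was -0.04 without cKO MED1 replicate 1 (46 below 0), -0.05 without cKO MED1 replicate 4 (52 below 0) and -0.21 without WT replicate 3 (59 below 0). In bulk RNA, fewer cells of a type and less RNA per cell cannot be told apart.

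The background itself varied with level. Most of these genes are strongly expressed, and 67 of the 80 were among the 6021 tested genes with the highest mean levels. Of those, 27.6% were lower, 5.40% were higher and the median was -0.15. Among the 67 members there, 10 were lower (14.9%) and 1 was higher. The groups did not overlap for 17 of the 80 members, against 39.1% of all genes tested.

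**Figure D1:**
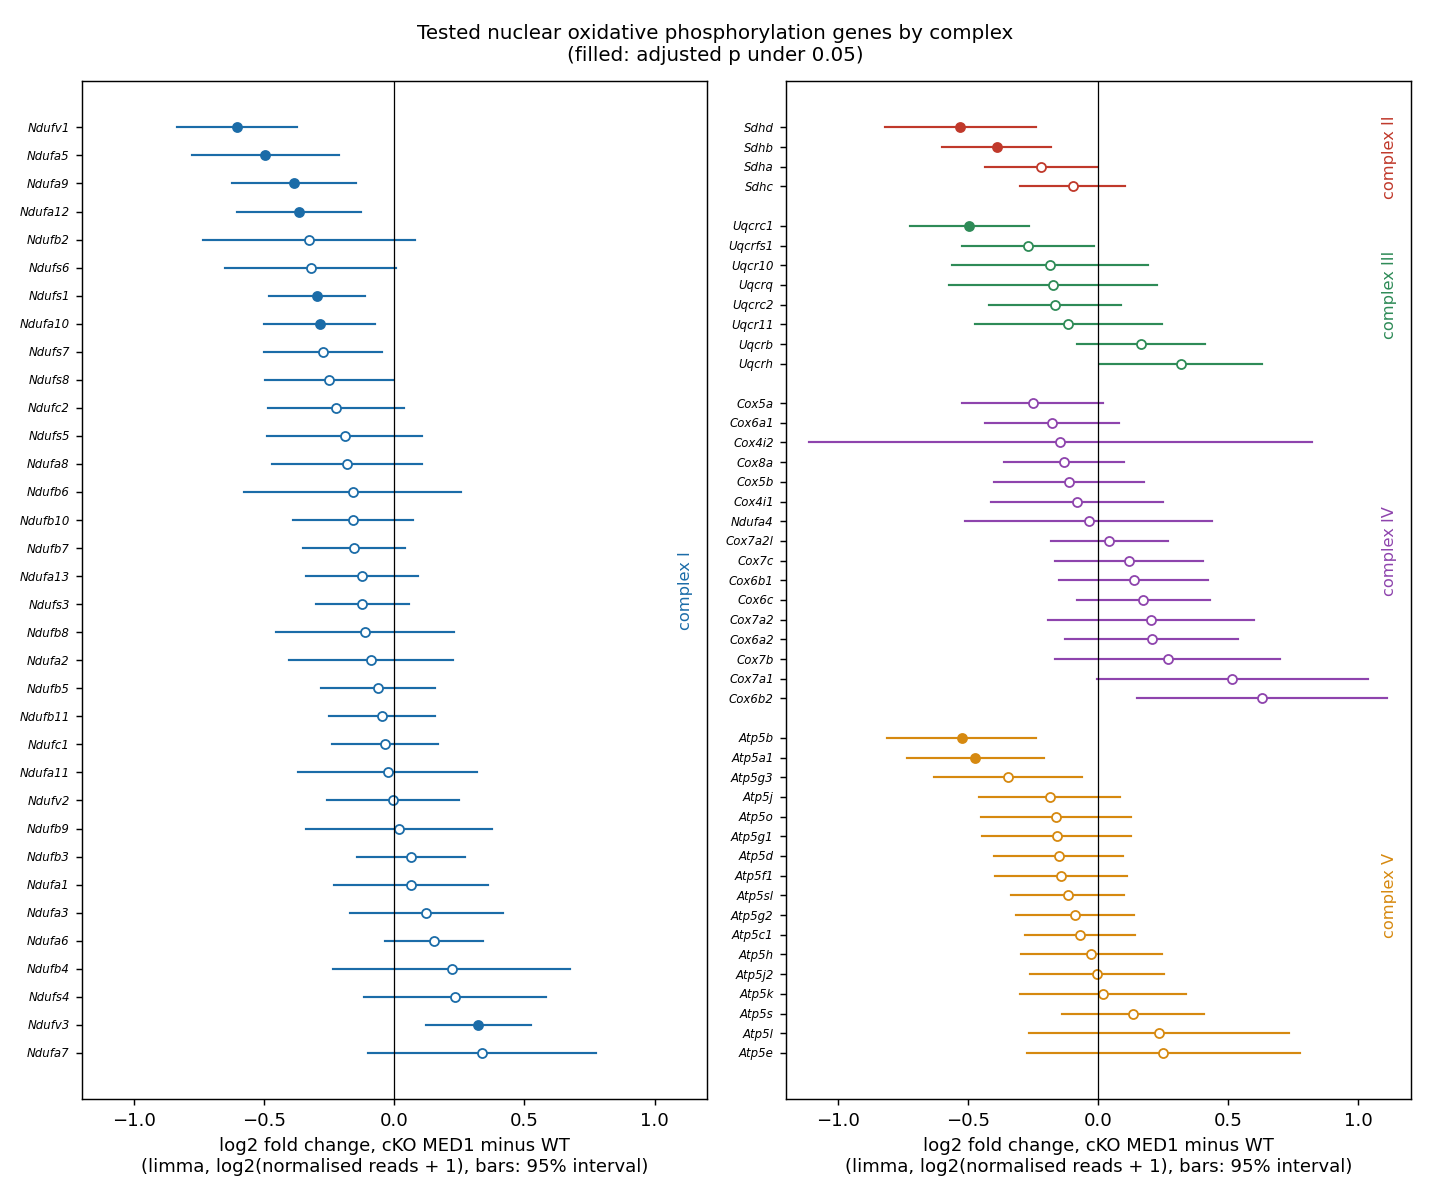
Log2 fold change of the tested genes (1 uncalled complex I gene is not shown), cKO MED1 minus WT (x axis, log2 of normalised reads + 1), ordered within complexes I to V; points are limma estimates, bars their 95% intervals, and filled points have an adjusted p under 0.05. All 11 filled points on the lower side belong to complexes I, II, III and V, and Ndufv3 is the 1 filled point above 0.

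The promoters of 5 genes are shown here because they represent the called genes of every complex that had one, where a window could be printed, and the 1 gene that was higher. Each runs from 250 bases before to 30 bases after the RefSeq transcription start (280 bases in all, GRCm38.p6), 5′ to 3′ on the gene's own strand. Capitals mark matches, on either strand, to the letters GCGC, A, any base and GCGC (NRF1), CCGGAAG (ETS factors, which include Gabpa), AAGATGGC (YY1) or CCAAT. The windows are chr19:4012726-4013005 on the minus strand for Ndufv1, chr4:140961021-140961300 on the plus strand for Sdhb, chr9:108936398-108936677 on the plus strand for Uqcrc1, chr10:128083057-128083336 on the plus strand for Atp5b and chr17:31519865-31520144 on the plus strand for Ndufv3.
Ndufv1: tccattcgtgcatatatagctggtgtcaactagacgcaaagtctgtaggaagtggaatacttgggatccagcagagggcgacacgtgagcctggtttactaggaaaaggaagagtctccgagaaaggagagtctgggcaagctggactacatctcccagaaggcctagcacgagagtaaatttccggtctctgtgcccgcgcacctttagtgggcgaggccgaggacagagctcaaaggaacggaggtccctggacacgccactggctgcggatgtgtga
Sdhb: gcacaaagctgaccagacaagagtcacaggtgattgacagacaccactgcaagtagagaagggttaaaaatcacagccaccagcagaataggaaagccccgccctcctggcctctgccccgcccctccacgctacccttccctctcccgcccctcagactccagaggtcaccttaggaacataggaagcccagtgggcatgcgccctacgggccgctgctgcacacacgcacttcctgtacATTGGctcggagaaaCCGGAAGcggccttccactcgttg
Uqcrc1: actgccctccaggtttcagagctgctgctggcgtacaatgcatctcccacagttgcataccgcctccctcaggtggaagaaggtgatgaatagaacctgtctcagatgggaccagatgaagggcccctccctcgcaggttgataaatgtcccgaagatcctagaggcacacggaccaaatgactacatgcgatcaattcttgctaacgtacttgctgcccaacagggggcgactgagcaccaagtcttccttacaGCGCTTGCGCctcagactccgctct
Atp5b: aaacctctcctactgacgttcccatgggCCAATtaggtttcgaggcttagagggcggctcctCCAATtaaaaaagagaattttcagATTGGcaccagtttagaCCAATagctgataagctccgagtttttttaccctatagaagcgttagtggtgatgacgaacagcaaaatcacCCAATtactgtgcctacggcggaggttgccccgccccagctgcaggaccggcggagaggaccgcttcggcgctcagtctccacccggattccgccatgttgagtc
Ndufv3: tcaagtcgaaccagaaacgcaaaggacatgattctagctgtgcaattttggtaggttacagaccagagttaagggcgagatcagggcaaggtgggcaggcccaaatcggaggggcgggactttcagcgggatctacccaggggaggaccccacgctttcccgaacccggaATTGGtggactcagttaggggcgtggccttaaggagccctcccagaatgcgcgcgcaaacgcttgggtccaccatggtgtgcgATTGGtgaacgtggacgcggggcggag

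None of the 4 motifs occurred in the Ndufv1 window. Sdhb held an ETS match 7 bases after the start and a CCAAT match on the opposite strand 9 bases before it. Uqcrc1 held an NRF1 match 6 bases after its start, Atp5b held 5 CCAAT matches between 222 and 75 bases before its start, and Ndufv3 held a pair of CCAAT matches. No capital match overlaps another in these windows. These 4 factors or boxes are textbook features of promoters of respiratory genes.

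RefSeq promoters were matched for 65 of the 80 tested genes. A member counted as holding a motif if any of its promoters held it. The shares over the whole table count single promoters, so the units differ. The NRF1 letters were found in 16 of the 65 (24.6%), against 4.41% of 32851 promoters in the table, and the ETS letters also in 16 (24.6% against 8.45%). The YY1 letters were in 4 (6.15% against 2.29%) and the CCAAT box in 29 (44.6% against 36.1%). Of the 11 genes called lower, 9 had a promoter. The NRF1 letters were in 3 of these (Ndufa5, Sdhd and Uqcrc1) and in 13 of the 56 other members, and the ETS letters were in 2 (Sdhb and Sdhd) and in 14 of the 56. The CCAAT box was in 2 of the 9 (Atp5b and Sdhb) and in 27 of the 56, and the YY1 letters were in 0 and 4. A match describes the letters only, and no binding was measured.

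Complex I, the NADH dehydrogenase, is built from core subunits that carry out electron transfer and from accessory subunits that surround them. Of its 35 genes, 6 were lower and 1 was higher, with a median of -0.13. The 7 nuclear core genes had a median of -0.25, and 2 of them were called, whereas Ndufs7 and Ndufs8, which carry the iron-sulfur clusters nearest the ubiquinone site, had -0.27 ± 0.10 SE and -0.25 ± 0.11 SE (limma adjusted p = 0.0662 and 0.109). Of the 28 accessory genes, 4 were lower and 1 was higher, with a median of -0.10.

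Ndufv1, the flavin-bearing subunit where NADH delivers its electrons (chromosome 19, 4007384 to 4012806, GRCm38), had the smallest adjusted p of all 80. It had 2192, 2022 and 1859 normalised reads in the WT libraries and 1401, 1416, 1393 and 1118 in the cKO MED1 libraries. The groups did not overlap, and the mean fell from 2024 ± 167 (SD, n = 3) to 1332 ± 143 (SD, n = 4), 65.8% of WT (a log2 change of -0.61 ± 0.11 SE, limma adjusted p = 0.00363). The other core gene called was Ndufs1, the large iron-sulfur subunit that receives electrons from Ndufv1. Its reads were 3003, 2660.2 and 2729 in WT and 2298, 2359, 2332 and 2106 in cKO MED1, with no overlap (-0.30 ± 0.08 SE, limma adjusted p = 0.0263). About 6.16% of the Ndufs1 exons overlap exons of antisense genes. Ndufv2, the partner of Ndufv1 in the NADH-oxidising tip, had means of 3436 in both groups (-0.01 ± 0.12 SE), with the groups interleaved.

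Ndufa5, an accessory subunit of the peripheral arm, had 688, 634 and 545 reads in WT and 491, 436, 479 and 362 in cKO MED1, with no overlap (-0.50 ± 0.13 SE, limma adjusted p = 0.0189). Ndufa9, which holds NADPH near the junction of the arms, had 2499.9, 2256 and 2219.6 reads against 1642, 1933, 2033 and 1545 (-0.39 ± 0.11 SE, limma adjusted p = 0.0254). Both genes were below every WT library in all 4 cKO MED1 libraries. Ndufa12 had 1581, 1524 and 1235 reads against 1057, 1173, 1227 and 1016 (-0.37 ± 0.11 SE, limma adjusted p = 0.0312), so that its groups nearly touched at WT replicate 3 and cKO MED1 replicate 3. It shares a near-identical stretch of at least 150 bp with Gm15920, which leaves its reads uncertain. Ndufa10 had 2732, 2431 and 2417 reads against 2230.4, 2253, 1958 and 1854 (-0.29 ± 0.10 SE, limma adjusted p = 0.0465), the weakest of the 12 calls.

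Ndufv3, an accessory subunit beside Ndufv1 and Ndufv2, was the only member called higher. It had 2727, 2732 and 2844 reads in WT and 3054, 3868, 3495 and 3477 in cKO MED1, with every cKO MED1 library above every WT library. The mean rose from 2768 ± 66.1 (SD, n = 3) to 3474 ± 333 (SD, n = 4), 125.5% of WT (0.32 ± 0.09 SE, limma adjusted p = 0.0272). The 3 genes of the NADH-oxidising tip thus had log2 fold changes of -0.61, -0.01 and 0.32. The direction of Ndufv3 held under each scaling tried, but under total reads its log2 fold change was 0.08, and it was not called under total reads, the authors' size factors or TMM over every row.

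The strongest complex I signals per kb of exon were Ndufa1 (2976 in WT and 3152 in cKO MED1), a small membrane subunit, and Ndufa2 (2692 and 2563), an accessory subunit of the peripheral arm. Neither was called, with log2 fold changes of 0.06 and -0.09. Ndufa1 and Ndufb11 are X-linked. Ndufb11 had a log2 fold change of -0.05 ± 0.09 SE, and both genes overlapped between groups.

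**Figure D2:**
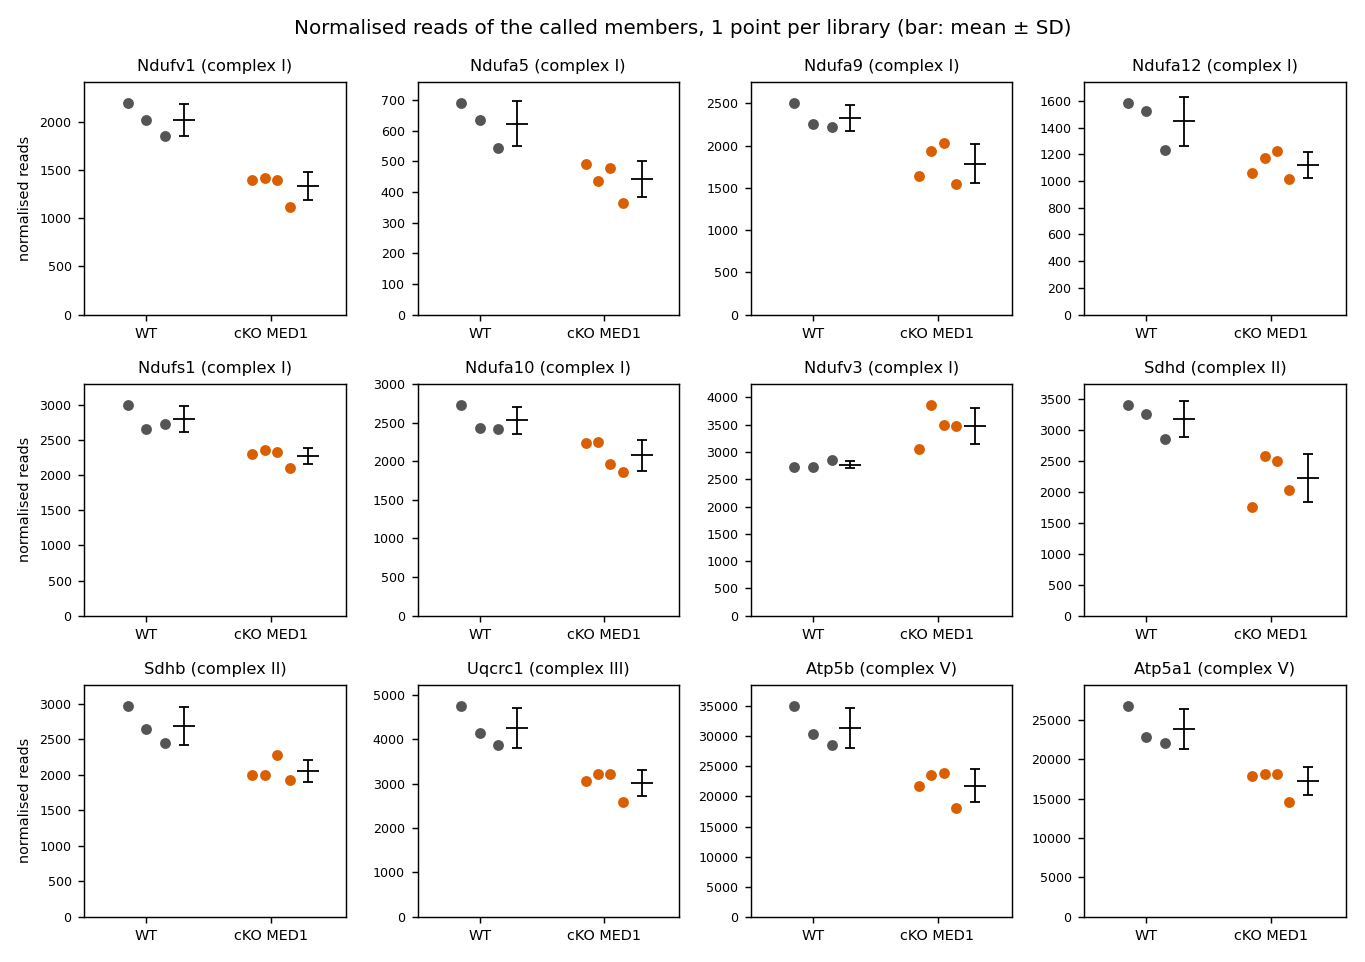
Normalised reads (y axis, from 0) of the 12 called genes in each of the 3 WT and 4 cKO MED1 libraries, with the mean ± SD of each group beside the points. The groups do not overlap in any panel, and cKO MED1 replicate 4 is the lowest library for 10 of the 11 genes called lower, Sdhd being the exception.

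Complex II, the succinate dehydrogenase, is shared with the citric acid cycle. All 4 of its genes had log2 fold changes below 0, with the lowest median of the 5 complexes, -0.31, and 2 were called lower. Sdhd, a membrane anchor that helps bind ubiquinone, had 3417, 3272 and 2859.9 reads in WT and 1763, 2577, 2510.2 and 2039 in cKO MED1, 69.8% of WT with no overlap (-0.53 ± 0.13 SE, limma adjusted p = 0.0165). Sdhb, the iron-sulfur subunit, had 2975, 2653 and 2450.3 reads against 2004, 1999, 2277 and 1927, also with no overlap (-0.39 ± 0.10 SE, limma adjusted p = 0.0156).

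The other two complex II genes were not called. Sdha, the flavoprotein that oxidises succinate, had 5785, 5166 and 5264 reads against 5024, 4986, 4511 and 4072 (-0.22 ± 0.10 SE, limma adjusted p = 0.106). Its groups did not overlap either. Sdhc, the other anchor, had a log2 fold change of -0.10 ± 0.09 SE, and its groups overlapped.

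Complex III, the cytochrome bc1 complex, had 1 of its 8 genes lower and a median of -0.17. Uqcrc1, a core protein that faces the matrix (chromosome 9, 108936633 to 108949623, GRCm38), had 4753, 4149 and 3866 reads in WT and 3061, 3206, 3207 and 2595 in cKO MED1. Every cKO MED1 library was below every WT library, and the mean fell from 4256 ± 453 (SD, n = 3) to 3017 ± 290 (SD, n = 4), 70.9% of WT (-0.50 ± 0.11 SE, limma adjusted p = 0.0087). Its partner Uqcrc2 had a log2 change of -0.17 ± 0.12 SE (limma adjusted p = 0.287), with overlapping groups. Uqcrfs1, the Rieske iron-sulfur protein and the catalytic subunit in this set, had -0.27 ± 0.12 SE (limma adjusted p = 0.0962).

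Uqcrh, the hinge protein near cytochrome c1 and the strongest of complex III per kb (3704 in WT and 4678 in cKO MED1), moved the other way. Its reads were 4291, 4987 and 4469 in WT and 4249, 6617, 6459 and 5823 in cKO MED1, high in 3 libraries and at the WT level in replicate 1 (0.32 ± 0.14 SE, limma adjusted p = 0.107). Without replicate 1 it was called higher. Uqcr10, the next strongest per kb, had a log2 fold change of -0.19 ± 0.17 SE.

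Complex IV, the cytochrome c oxidase, had no called gene among the 16 that passed the filter, with 1 at an unadjusted p under 0.05 in limma and 0 called by edgeR or DESeq2, which called 29.6% and 34.0% of all genes (43.6% of all genes had an unadjusted p under 0.05 in limma). Its median was 0.08 (-0.16 under total reads, -0.05 under the authors' size factors and -0.08 with TMM over every row), and that of its 12 genes other than tissue-restricted isoforms was 0.00. The strongest per kb were Cox8a (6982 in WT and 6404 in cKO MED1) and Cox4i1 (5852 and 5608). Cox4i1, whose protein takes part in the regulation of the enzyme by ATP, had 9463, 9578 and 8173 reads in WT and 6500.1, 10043, 10304 and 7924 in cKO MED1 (-0.08 ± 0.15 SE). The cKO MED1 libraries lay on both sides of the WT range. About 9.94% of the Cox4i1 exons overlap exons of the antisense gene Emc8. Cox5a, a subunit on the matrix side, had the lowest value of complex IV, -0.25 ± 0.12 SE (limma adjusted p = 0.137), and was called lower only under total reads and TMM over every row.

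Cox7b, the X-linked subunit of complex IV, had 3961, 4332 and 3590.5 reads in WT and 3026, 5129, 6353 and 5165 in cKO MED1 (0.27 ± 0.20 SE, limma adjusted p = 0.317). Replicate 1 was the lowest of the 7 libraries and the other 3 cKO MED1 libraries were the highest. Reads of Cox7b can also fall on the near-identical Gm13771 and Gm19503.

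Of the 8 tissue-restricted isoforms, 4 passed the filter, at levels far below their ubiquitous partners. Cox6b2, known from testis, had 32.4, 38.4 and 38.3 reads in WT and 56.9, 46.8, 55.3 and 69.5 in cKO MED1, against a mean of 3704 for its partner Cox6b1 in WT. The Cox6b2 groups did not overlap (0.63 ± 0.22 SE, limma adjusted p = 0.0515), and Cox6b1 had 0.14 ± 0.13 SE. Cox7a1, the heart and muscle form, had 31.7, 40.8 and 35.9 reads against 37.9, 59.5, 57.9 and 54.9 (0.51 ± 0.24 SE, limma adjusted p = 0.119), beside 0.20 ± 0.18 SE for its partner Cox7a2. Both isoforms had at most 69.5 reads in any library, and the receptor-gene background was also higher in cKO MED1 replicates 3 and 4. The summed reads of 8 skeletal and heart muscle markers were 214 to 319 in WT and 275 to 911 in cKO MED1, and 2 of the 7 tested were higher. After subtraction of the receptor-gene background per kb, Cox6b2 had 0.62 (limma adjusted p = 0.0513) and Cox7a1 had 0.51 (limma adjusted p = 0.119), close to the values without it. The background was at most 0.893 reads per kb, against mean levels of 43.5 for Cox6b2 and 85.1 for Cox7a1. The subtraction could therefore hardly move either value, and no conclusion is drawn from it. The part of muscle RNA in these values was not tested.

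Cox6a2, another heart and muscle form, had a log2 fold change of 0.21 ± 0.15 SE beside -0.18 ± 0.12 SE for Cox6a1. Cox4i2, a lung form, had -0.15 ± 0.44 SE, with 12.7 to 38.4 reads. The 4 genes that failed the filter were Cox7b2, Cox8b, Cox8c and Ndufa4l2. Cox8b had 0 reads in all 7 libraries, Cox7b2 and Cox8c had at most 1.83 and 2.71 normalised reads, and Ndufa4l2 had at most 4.90 in WT and 2.92 to 13.2 in cKO MED1. No fold was computed for these, and their partners Cox7b, Cox8a and Ndufa4 (-0.04 ± 0.22 SE) were all abundant.

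Complex V, the ATP synthase, consists of the catalytic F1 head, the membrane ring of c subunits and the stalks that join them. Of its 17 genes, 2 were lower, with a median of -0.12, and both are the major subunits of the head. Atp5b, the catalytic beta subunit (chromosome 10, 128083273 to 128090391, GRCm38), had 35049, 30346 and 28571 reads in WT and 21712, 23570.0, 23908 and 18012 in cKO MED1. The mean fell from 31322 ± 3347 (SD, n = 3) to 21800.4 ± 2704 (SD, n = 4), 69.6% of WT, with no overlap (-0.53 ± 0.13 SE, limma adjusted p = 0.0161). Atp5a1, the alpha subunit that alternates with beta in the head, had 26766, 22752 and 21995 reads against 17922, 18176, 18071 and 14518, again with no overlap (-0.47 ± 0.12 SE, limma adjusted p = 0.0176). These 2 genes were also the strongest of complex V per kb, at 7604 (Atp5a1) and 7393 (Atp5b) in WT against 5477 and 5145 in cKO MED1.

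The other F1 genes were not called. Atp5c1, the rotor shaft gamma, had a log2 fold change of -0.07 ± 0.10 SE, Atp5d, the delta subunit, -0.15 ± 0.11 SE, and Atp5e, the epsilon subunit, 0.25 ± 0.24 SE. The 3 genes of the c ring, which encode the same mature protein with different import sequences, all lay below 0, and Atp5g3 came nearest to the threshold (-0.35 ± 0.13 SE, limma adjusted p = 0.0632). None of the 7 stalk and membrane genes was called, with a median of -0.03 and a range from -0.19 to 0.23. Atp5s and Atp5sl had 0.13 and -0.12, and neither was called.

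The 4 cKO MED1 libraries differed among themselves in how these genes stood. Relative to the WT mean of each gene, the mean over all 80 genes was 0.05, 0.04 and -0.09 on the log2 scale in the WT libraries and -0.31, 0.04, 0.11 and -0.17 in the cKO MED1 libraries. Replicates 1 and 4 were low, and replicates 2 and 3 stood at or above the WT mean. Complex II departed from this, with means of -0.39, -0.22, -0.20 and -0.44, below all 3 WT libraries in every cKO MED1 library. Complex IV had means of -0.22, 0.17, 0.31 and 0.07, below the WT range only in replicate 1. Its 16 genes include the 4 tested tissue-restricted isoforms, which have few reads. In cKO MED1 replicate 4 these stood at 0.92 (Cox6b2), 0.63 (Cox4i2), 0.60 (Cox7a1) and -0.15 (Cox6a2). The means of complex IV therefore do not stand for its ubiquitous genes alone, and means without the isoforms were not computed.

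**Figure D3:**
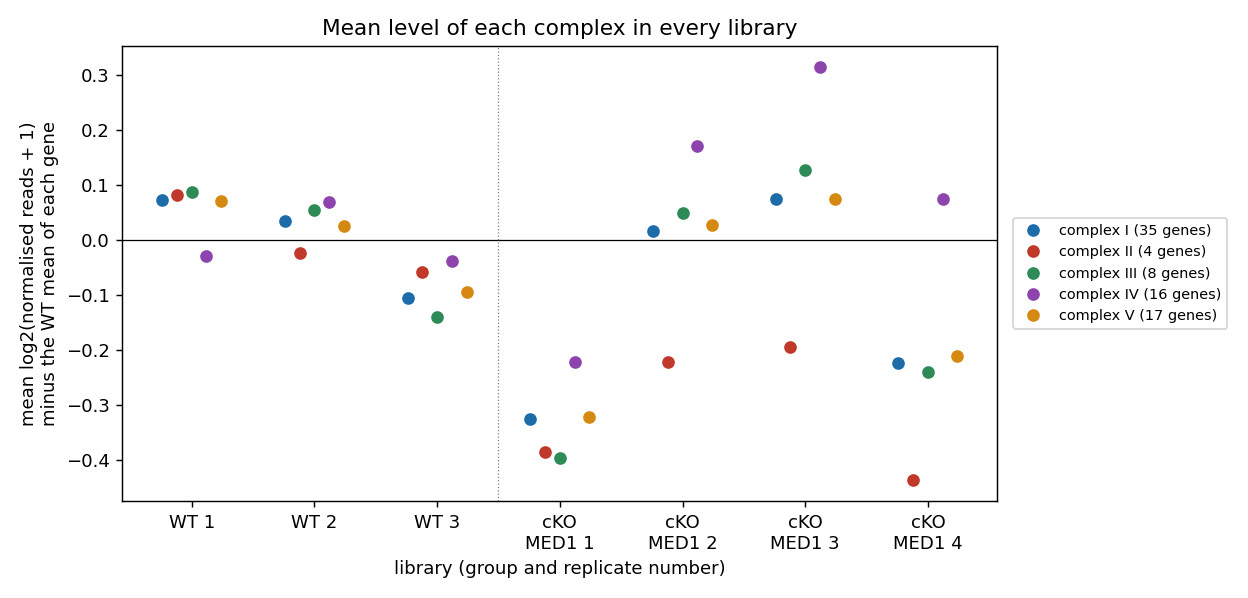
Mean over the tested genes of each complex of log2(normalised reads + 1) minus the WT mean of each gene (y axis), for the 7 libraries (x axis). Complex II lies below 0 in all 4 cKO MED1 libraries, whereas complexes I, III and V are below the WT range in replicates 1 and 4 and near or above 0 in replicates 2 and 3. Complex IV includes the 4 tested tissue-restricted isoforms, which have few reads.

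The log2 fold change was lower in genes with longer coding sequences, each gene being given its longest annotated one. Which form of a gene the cells used was not examined. Over the 76 tested genes that are not tissue-restricted isoforms, Pearson's r between log2 residues and the log2 fold change was -0.48 and Spearman's rho was -0.46. The points share the same 7 libraries, so this is a description across genes, which are not independent replicates. The 43 genes of at most 150 residues had 2 called lower and a median of -0.05, the 22 of more than 150 and up to 300 residues had 2 lower and a median of -0.12, and the 11 over 300 residues had 7 lower, 1 higher and a median of -0.30. The groups did not overlap for 9 of those 11, against 39.1% of all genes tested, and no such share was computed for long genes. The called genes of this class are among the 9, so the count largely repeats the calls. The long members include Ndufv1, Ndufs1, Uqcrc1, Atp5b, Atp5a1 and Ndufv3, and the short ones include most accessory subunits of complexes I, III and IV.

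The other protein-coding genes of the 6021 with the highest levels had median log2 fold changes of -0.11 for 360 genes of at most 150 residues, -0.17 for 982 genes of more than 150 and up to 300 and -0.15 for 4264 longer ones. The share called lower among them was 17.5%, 28.6% and 29.0%. By library, the short members had means of -0.35, 0.10, 0.22 and -0.13 in cKO MED1 replicates 1 to 4, on both sides of 0, and the long members -0.31, -0.19, -0.24 and -0.49. The other short genes had a like order, with means of -0.33, 0.06, 0.04 and -0.26, and the other long genes had -0.05, -0.13, -0.20 and -0.22. In replicates 2 and 3 the means of the other genes thus also fell with length. In replicates 1 and 4 they rose instead, from -0.33 to -0.05 and from -0.26 to -0.22. The members rose slightly in replicate 1 and fell from -0.13 to -0.49 in replicate 4. Whether the members differ from the other genes in this was not tested. Without cKO MED1 replicates 3 and 4, the libraries with the highest receptor-gene background, Pearson's r was -0.24. It was -0.48 without replicate 4 alone, which had the highest background. With each library left out in turn, r ran from -0.36 (without cKO MED1 replicate 3) to -0.56 (without cKO MED1 replicate 1). With sex as a covariate it was -0.66. The part of the background in r was not tested.

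**Figure D4:**
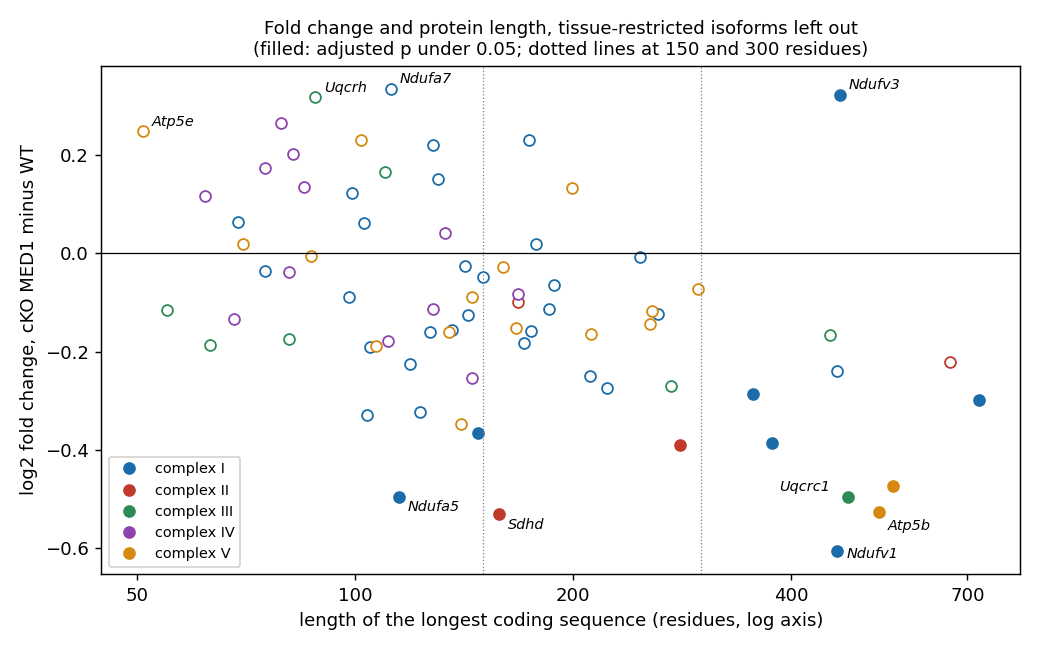
Log2 fold change, cKO MED1 minus WT (y axis), against the length of the longest annotated coding sequence in residues (x axis, log scale) for the 76 genes other than tissue-restricted isoforms; filled points have a limma adjusted p under 0.05 and colours give the complex. Of the 11 genes to the right of the line at 300 residues, 7 are called lower and 1, Ndufv3, is called higher.

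Genes that serve the complexes without being in the set were read from lists of other pathway genes. Their counts stand beside 14.6% lower and 13.4% higher over all genes tested, and 27.6% lower and 5.40% higher among the 6021 with the highest levels. Of 15 complex I assembly factors tested, 3 were lower (Ecsit, -0.47, limma adjusted p = 0.0117; Ndufaf4, -0.59; Ndufaf2, -0.49) and none was higher, with a median of -0.20. Of 10 assembly factors of complexes II and III, 1 was lower (Uqcc1, -0.35). Complex IV assembly factors went both ways, with 4 of 21 lower and 3 higher. Cox17, the copper chaperone, rose by 0.41 in log2 (limma adjusted p = 0.0108) and Cmc1 by 0.60, whereas Cox10, which makes heme O, fell by 0.59 and Coa7 fell by 0.60. Of 3 genes for ATP synthase assembly and inhibition, 1 was lower (Atpaf2, -0.39).

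Among 9 tested electron carriers and feeder enzymes, 5 were lower, with a median of -0.34. Cytochrome c (Cycs) had 1913 ± 235 reads (SD, n = 3) in WT and 1411 ± 115 (SD, n = 4) in cKO MED1 (-0.43, limma adjusted p = 0.0138). Cyc1, the complex III subunit on which cytochrome c docks and whose symbol falls outside the rule, had a log2 change of -0.47 (limma adjusted p = 0.0255). The ubiquinone-linked dehydrogenases Dhodh and Gpd2 fell by 0.48 and 0.49 on the log2 scale, and Sqrdl, at 10.8 reads in WT, was the 1 gene of this list that was higher. Of 11 genes of ubiquinone synthesis 4 were lower (Coq5, Coq7, Pdss1 and Coq4), with a median of -0.22.

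The citric acid cycle list, which feeds electrons into complexes I and II, had 10 of 19 genes lower and none higher, with a median of -0.32. The 4 with the smallest adjusted p were Pdhb, of pyruvate dehydrogenase (-0.54, limma adjusted p = 0.0045), Fh1, the fumarase (-0.47), Idh3a, of isocitrate dehydrogenase (-0.56), and Suclg1, of succinyl-CoA ligase (-0.42). Of 13 regulators of mitochondrial biogenesis 5 were lower and 1 was higher. Myc, a growth factor-responsive activator of metabolic genes, had -0.71 (limma adjusted p = 0.00591), the coactivator Pprc1 -0.51, and Gabpa, the ETS factor named above, -0.34. Ppargc1a, at 33.2 ± 3.74 reads (SD, n = 3) in WT, was higher (0.74).

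The 13 subunits encoded by the mitochondrial genome stood apart in direction from the nuclear ones. Of these 8 were higher and none was lower, with a median of 0.67. Their summed reads were 421370.0 to 585468 in WT and 541500.3 to 1019753 in cKO MED1, so the groups overlapped. mt-Nd5, of complex I, had the smallest adjusted p (0.82, limma adjusted p = 0.01). These transcripts are made by the mitochondrial RNA polymerase. The difference between the nuclear and the mitochondrial genes was not tested.

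The calls depended on single libraries, and the part of sex in them cannot be told apart from genotype in this design. Without WT replicate 1, 2 members were lower, Ndufv1 (limma adjusted p = 0.0159) and Uqcrc1 (limma adjusted p = 0.0401), against 5.25% of all genes, and calls over all genes fell from 5065 to 1556. Without cKO MED1 replicate 4, 6 members were lower and 1 was higher, against 8.90% and 7.53% of all genes. Without cKO MED1 replicates 3 and 4, 6 were lower and none higher, against 7.34% of all genes lower. Without cKO MED1 replicate 1, 11 were lower and 12 were higher, against 17.5% and 16.9% of all genes, the higher ones being Atp5e, Atp5l, Cox6c, Cox7a1, Cox7a2, Cox7b, Ndufa7, Ndufb4, Ndufs4, Ndufv3, Uqcrb and Uqcrh. Sex as a covariate leaves cKO MED1 replicate 3 as the only library of its group compared with WT of the same sex. With it, no member was called by limma, against 228 of all genes (1.26%). Of the 80 members, 28 lay below 0 in that fit, against 56 without the covariate. In that fit Ndufv1 had a log2 fold change of -0.54 (limma adjusted p = 0.149) and Uqcrc1 had -0.40 (limma adjusted p = 0.199), and the median of the 80 genes was 0.08. All 11 genes called lower were below every WT library in cKO MED1 replicate 3 as well. This follows from groups that do not overlap, with replicate 3 among the libraries behind the calls, so it is no separate test.

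Scaling moved all genes together. The median over all genes was 0.04 with the scaling used here, -0.21 under total reads, -0.10 under the authors' size factors and -0.12 with TMM over every row. The number of members called lower was 21, 15 and 20 under these 3 scalings, against 24.2%, 19.8% and 24.2% of all genes. None was called higher, and the lower ones included all 11 genes named above. Relative to the median of all genes, the median of the members was -0.15 under these 3 scalings and under the one used here. A scaling shifts every gene by nearly the same amount, so this distance could hardly change. The 11 lower calls were likewise likely to stay under scalings that lower all genes, and no conclusion is drawn from either. With the replicate number as a block, 7 members were lower and 1 was higher, against 10.1% and 10.6% of all genes. With a filter of CPM 1 in 3 libraries, Cox6b2 was called higher beside Ndufv3, against 9.95% of all genes higher. That filter, which leaves out more genes with few reads, gave a median of -0.09 over all genes, so that the members stood 0.02 below it, against 0.10 below with the block. At a threshold of 0.01, Ndufv1 and Uqcrc1 were called lower, against 7.24% of all genes called.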

How the data were processed

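RNA-seq of 7 libraries was used, 3 WT and 4 cKO MED1, from a stranded total RNA kit, read in pairs of 150 bp, per the labels' protocols. The authors deposited 1 table of signal values per gene, which are read counts divided by 1 size factor per library: all values were whole multiples of the step of their library, within 1e-06, so whole reads were recovered. The build GRCm38 (mm10) and the tools DESeq2, R 3.4, Subread 1.5.0-p3, featureCounts and STAR 2.4.0a are named, in no order, per the submitters' processing notes. No source used here gives the strand setting of the counting. Reads in the stretches that 26 members share with antisense exons therefore cannot be told apart, and these stretches exceed 10% of the exons in 11 members.

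TMM factors (edgeR 4.0.16) over the 18062 genes kept by filterByExpr scaled the recovered reads to a common library of 48080599 reads. Genes were tested with limma 3.58.1 (R 4.3.3, intensity trend) on log2(normalised reads + 1), which understates changes of low genes, with Benjamini-Hochberg adjustment over all genes tested and a threshold of 0.05. Fold changes are cKO MED1 minus WT. The edgeR quasi-likelihood test and DESeq2 1.42.0 on the recovered reads, which called 5340 and 6137 genes, were alternatives. Positions, exons and coding lengths came from the GENCODE annotation of GRCm38 by symbol or RefSeq synonym (95.6% of features, all 84 members), and promoters from RefSeq (GRCm38.p6). Near-identical transcripts were those sharing at least 150 bp at 95% identity (28 members). The scripts were tested on simulated data.

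The members, gene lists, length limits and motifs were chosen with earlier results of these data known. Named genes were every called member, in each complex the 3 smallest adjusted p and the 2 highest levels per kb, tissue-restricted isoforms with their partners, X-linked members, members that failed the filter, and up to 4 genes with the smallest adjusted p in each list. Of complex I, 1 member, and 1 B cell marker are not reported by name here. Others were named for their role beside these, after their values were seen. Alternatives were other scalings, filters, a pseudocount of 5, a block by replicate number, a threshold of 0.01, sex as a covariate, subtraction of the receptor-gene background and libraries left out. TMM over every row was added after seeing the data.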

Additional observations from a re-analysis of the deposited data

Results flagged for a closer look

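In the 86 groups of 4 libraries examined for a library far from the others, 2 held one. Chance alone flags about 1 in 20 groups, so 2 of 86 does not exceed that rate. Both were cKO MED1 replicate 4, the shallowest library. For Atp5a1, its 14518.34 normalised reads were the lowest of the 4, and the gap to the next library was 0.931 of the group's range. For Ndufv1, its 1118.2 reads were the lowest, with a gap of 0.923 of the range. Without this library both genes were still called lower, Atp5a1 at -0.37 (limma adjusted p = 0.039) and Ndufv1 at -0.50 (limma adjusted p = 0.0066).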

How the results depend on the processing

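No called value changed sign under any alternative run. Total reads gave 21 members called, 21 lower and 0 higher, with medians of -0.37, -0.55, -0.16 and -0.36 for complexes I, II, IV and V. The authors' size factors gave 0 higher and a complex II median of -0.44, and TMM over every row gave 20 called, 20 lower, 0 higher and a complex II median of -0.46. A filter of CPM 1 in 3 libraries gave 2 higher, Cox6b2 being the addition. Sex as a covariate gave 0 called, 0 lower and 0 higher, 228 of all genes, and medians of 0.05, -0.25, 0.21, 0.35 and 0.02 for complexes I to V, so that those of complexes I, III and V turned from below to above 0. Without cKO MED1 replicates 3 and 4, 6 were called, 6 lower and 0 higher, with 2145 of all genes. At a threshold of 0.01, 2 were called, 2 lower and 0 higher, with 1307 of all genes. With each library left out in turn, members called ranged from 2 to 23, those lower from 2 to 12, those higher from 0 to 12, and all genes called from 1556 to 6125. Ndufv1 and Uqcrc1 lost their call in 1 of 23 alternatives each, sex as a covariate, whereas Ndufa10 lost its call in 11 and Ndufv3 in 9. The cause of these shifts was not tested. Every cKO MED1 library was shallower than every WT library, which limits the precision for the tissue-restricted isoforms.

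With the replicate number as a block, 7 members were lower and 1 was higher. Same-numbered libraries had correlations of their deviations of 0.51, -0.23 and 0.16, and only WT replicate 1 correlated best with its own number, so the numbers were not taken to pair the samples.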

Other observations

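Of the 4 pseudogene rows left out by symbol, Atp5l2-ps alone passed the filter. It had 582, 536 and 471 normalised reads in WT and 393, 702, 828 and 582 in cKO MED1 (log2 fold change 0.19, limma adjusted p = 0.487). The low library was cKO MED1 replicate 1, as for Atp5l itself, which had 2166, 2074 and 1755 reads in WT and 1367, 2576, 3265 and 2595 in cKO MED1. Reads of the gene and of its copies cannot be told apart where their sequences are near identical.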
